A study of Rattus norvegicus with 16 samples.

Results

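The genes of the cytosolic ribosomal proteins were followed one by one in the stomach and the middle part of the intestine of suckling rats. They were chosen by name: every gene of the array called Rpl or Rps with a number and, where it applies, a letter or paralog number, together with Rplp0, Rplp1, Rplp2 and Rpsa, and without the Rps6k kinases. The rule found 93 of 26115 named genes, measured by 165 probes. Of these, 58 encode proteins of the large subunit or their paralogs and 35 belong to the small subunit. For each gene the brightest probe in Cy5, averaged over all arrays, was taken, and 90 genes passed the filter on dim probes. The other 3, all large subunit paralogs, were Rpl3l, Rpl39l and Rpl31l1.

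The ribosome is built from a large and a small subunit, each a core of ribosomal RNA covered by proteins that are needed in near equal numbers. Their genes are therefore usually described as one abundant and evenly expressed group, controlled through growth signals that act on a pyrimidine tract at the very start of their mRNAs. In the gut, fast dividing crypt cells and protein secreting gland cells are both heavy users of ribosomes. Some of the proteins have a paralog that is made in a few tissues, such as Rpl3l in striated muscle and Rpl39l and Rpl10l in testis.

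The pups were Wistar rats (of Wistar Han parents in the study's methods) given either saline (C) or obestatin at 250 nmol/kg of body weight (OH), into the gut, with 2 doses daily between postnatal days 14 and 21. Total RNA of 4 rats was hybridised for each of 4 groups, the stomach and the middle intestine of C and of OH pups, each rat's tissue in Cy5 against a common Cy3 pool of RNA of the study's rats, with no dye swap. Values below are log2 ratios of Cy5 to Cy3, so that 0 is the level of the pool, and differences are differences of such ratios. The labels do not say whether stomach and intestine arrays of one number came from the same rat. RNA came from bulk tissue, so fewer cells of a type and less RNA per cell cannot be told apart. Each group was hybridised on a slide of its own and the OH and C slides were scanned on different days, so the treatment cannot be told apart from slide or scan day, nor the tissue from the slide. The median raw Cy3 signal was 188 to 195 on the 8 C arrays and 341 to 399 on the 8 OH arrays. The tissue labels fit the markers: all 9 genes of oxyntic stomach mucosa were higher in stomach and all 8 enterocyte genes were higher in intestine, in C and in OH. The stomach arrays of the C group differed in striated muscle RNA, which is given with the results it touches, and in forestomach genes. The mean of the 4 forestomach genes measured was 1.41, -0.03, 2.23 and 1.76 on C stomach replicates 1 to 4. On the OH stomach arrays it was -0.07 to 1.07.

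The probes below are shown because paralogs of ribosomal proteins can be nearly identical, and the value of each gene rests on what its probe can tell apart. Each is printed 5′ to 3′ with its place in the rn4 build given by the array files, and the capitals mark the longest run of bases shared by the probes of a pair, where it reached 8 bases.
Rpl10, chrX:160336740-160336799, minus strand: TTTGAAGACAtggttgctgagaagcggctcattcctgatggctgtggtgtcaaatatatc
Rpl10l, chr6:87930295-87930354, minus strand: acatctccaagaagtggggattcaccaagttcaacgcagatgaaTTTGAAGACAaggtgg
Rpl39, chrX:7825973-7827753, plus strand: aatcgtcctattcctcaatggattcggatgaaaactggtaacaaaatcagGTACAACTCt
Rpl39l, chr10:5409629-5409688, minus strand: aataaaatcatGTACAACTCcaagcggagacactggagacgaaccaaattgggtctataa
Rpl3, chr7:118314786-118314845, minus strand: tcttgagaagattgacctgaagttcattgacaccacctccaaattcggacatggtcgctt
Rpl3l, chr10:13991825-13991884, plus strand: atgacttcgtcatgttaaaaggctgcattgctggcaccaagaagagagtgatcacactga
Rpl22, chr5:169564375-169564434, plus strand: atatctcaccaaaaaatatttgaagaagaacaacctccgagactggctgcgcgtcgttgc
The longest shared run was 10 bases for Rpl10 and Rpl10l, 9 bases for Rpl39 and Rpl39l and 6 bases for Rpl3 and Rpl3l, whose probes lie in different stretches of the coding sequence. The Rpl39 probe shown spans an intron, and it and the Rpl22 probe are the dimmer of 2 probes for their gene. Over the 8 paralog pairs on the array no run shared by any probes of the pair was longer than 10 bases. These runs compare probe with probe, and probes from different stretches can share little however alike the genes are. They therefore do not show whether a probe tells its gene from the paralog, and binding to the paralog's RNA was not tested. Processed copies elsewhere in the genome are not covered either. Of the 93 probes used, 46 list more than 1 RefSeq accession in the array annotation, so the values of those genes may hold RNA of more than 1 locus.

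The question of the tissue comparison is which ribosomal protein genes had a different level in stomach than in middle intestine. In C, 6 of 90 members were higher in stomach and 16 were lower at an adjusted p below 0.05 (limma, Benjamini-Hochberg over all 21174 probes tested). These are 6.67% and 17.8% of the members, against 22.7% and 22.3% of all probes. The differences were small: the median over the members was -0.05 with a range from -0.76 to 0.53, and the median size was 0.13, against 0.44 over all probes. In OH, 6 members were higher and 7 lower, that is 6.67% and 7.78%, against 19.2% and 19.1% of all probes, with a median difference of -0.02 and a median size of 0.12. All 6 genes that passed as higher in C stomach, and all 6 in OH stomach, belong to the large subunit, of which 55 genes were tested. Of these 55, 8 passed as lower in C stomach and 5 in OH stomach. Of the 35 small subunit genes, 8 passed as lower in C stomach and 2 in OH stomach. Of all probes, 22.3% passed as lower in C and 19.1% in OH. The split between the subunits was not tested.

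C and OH arrays are different animals, so the tissue difference was measured in each of these sets on its own. Among the genes past the threshold in both sets were Rpl10, Rpl15 and Rpl39, higher in stomach, and Rplp2, Rpsa, Rpl22, Rpl36, Rps10 and Rpl17, lower in stomach. The 10 genes that passed in both are 45.5% of the 22 found in C and 76.9% of the 13 found in OH, and all had the same direction in both sets. Over all 90 members the direction was the same for 80. The same shares were not taken over all probes, so these counts are not shown to be particular to the members.

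**Figure D1:**
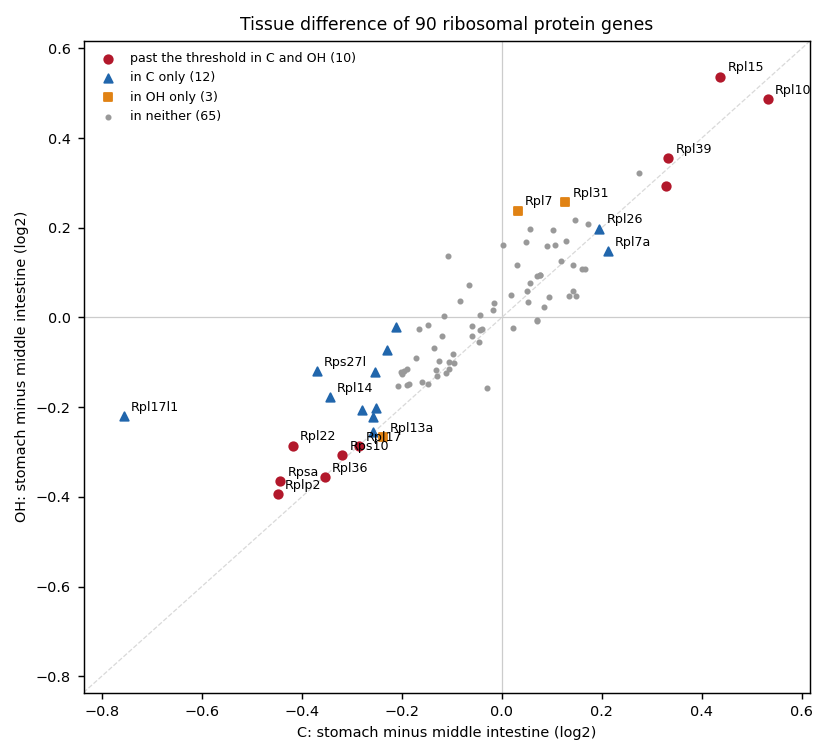
Difference between stomach and middle intestine for each of the 90 members, in C (x axis) and in OH (y axis), as log2; colours and shapes show in which set the adjusted p was below 0.05 and the dashed line marks equal differences. Rpl15 and Rpl10 lie farthest to the upper right and Rplp2, Rpsa and Rpl36 to the lower left, while Rpl17l1 is far from the line at -0.76 in C and -0.22 in OH.

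Rpl10, a protein that joins the large subunit late in its assembly and sits near the catalytic centre, had the largest rise in C stomach. Its log2 ratios were 0.24, 0.30, 0.24 and 0.25 in C stomach and -0.25, -0.47, -0.08 and -0.30 in C middle intestine. In OH they were 0.19, 0.19, 0.10 and 0.18 in stomach and -0.30, -0.07, -0.58 and -0.34 in middle intestine. Stomach and intestine did not overlap in either set, and the intestine arrays were the more spread. The tissue difference was 0.53 (SE 0.11, adjusted p = 0.00135) in C and 0.49 (SE 0.11, adjusted p = 0.00296) in OH. All 3 probes of the gene passed in both sets, at 0.36, 0.43 and 0.53 in C.

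Rpl15, a large subunit protein, was 0.44, 0.46, 0.75 and 0.62 in C stomach and -0.0033, 0.20, 0.15 and 0.18 in C middle intestine. In OH it was 0.64, 0.44, 0.23 and 0.41 in stomach and -0.28, -0.46, 0.12 and 0.19 in intestine. The groups did not overlap, with the lowest OH stomach array close to the highest OH intestine array. The difference was 0.44 (SE 0.14, adjusted p = 0.0239) in C and 0.54 (SE 0.14, adjusted p = 0.00894) in OH.

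Rpl39, a very small protein lining the tunnel through which the new peptide leaves, was 0.13, 0.20, 0.12 and 0.09 in C stomach and -0.23, -0.18, -0.22 and -0.17 in C middle intestine. In OH it was 0.08, 0.11, 0.22 and 0.10 in stomach and -0.25, -0.33, -0.10 and -0.22 in intestine. These groups were tight and lay on either side of the pool level. The difference was 0.33 (SE 0.08, adjusted p = 0.0039) in C and 0.36 (SE 0.08, adjusted p = 0.00287) in OH.

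The other genes higher in stomach passed in one set each. In C these were Rpl7a (0.21, adjusted p = 0.0305) and Rpl26 (0.20, adjusted p = 0.0491), and in OH Rpl31 (0.26, adjusted p = 0.017), another tunnel exit protein, and Rpl7 (0.24, adjusted p = 0.0257). Rpl26 had the same difference in OH, 0.20, at an adjusted p of 0.0526.

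Among the genes lower in stomach, Rplp2 and Rpsa fell most of those measured well above background on every array. Rplp2 is part of the acidic stalk that calls elongation factors to the ribosome. It was -0.15, -0.08, -0.08 and -0.13 in C stomach and 0.42, 0.52, 0.14 and 0.27 in C middle intestine. In OH it was -0.14, -0.25, -0.26 and -0.21 in stomach and 0.24, -0.02, 0.42 and 0.07 in intestine. No stomach array reached the lowest intestine array. The difference was -0.45 (SE 0.11, adjusted p = 0.00427) in C and -0.39 (SE 0.11, adjusted p = 0.0107) in OH. The other stalk genes did not pass: Rplp0, the base of the stalk, differed by 0.07 (adjusted p = 0.472) and Rplp1, the partner of Rplp2, by 0.11 (adjusted p = 0.422) in C, and by -0.0048 and 0.16 in OH.

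Rpsa, the small subunit protein also known as the laminin receptor precursor, was -0.42, -0.17, -0.42 and -0.43 in C stomach and 0.01, 0.23, -0.05 and 0.15 in C middle intestine. The array at -0.17 was C stomach replicate 2, apart from the other 3. In OH the gene was -0.35, -0.34, -0.20 and -0.26 in stomach and 0.01, -0.16, 0.32 and 0.14 in intestine. The difference was -0.44 (SE 0.11, adjusted p = 0.00562) in C and -0.36 (SE 0.11, adjusted p = 0.0196) in OH. A further Rpsa probe, nearer the start of the gene, gave -0.08 in C and -0.16 in OH.

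Rpl22, an RNA binding protein of the large subunit, was -0.01, -0.14, -0.08 and 0.0026 in C stomach and 0.39, 0.42, 0.37 and 0.27 in C middle intestine. In OH it was 0.11, -0.03, 0.01 and 0.05 in stomach and 0.33, 0.19, 0.47 and 0.30 in intestine. The difference was -0.42 (SE 0.09, adjusted p = 0.00116) in C and -0.29 (SE 0.09, adjusted p = 0.0155) in OH, and the coding probe printed above gave -0.26 in C and -0.21 in OH. Rps10, a protein of the head of the small subunit, was at 0.21, 0.18, 0.23 and 0.27 in C stomach against 0.56, 0.64, 0.47 and 0.50 in C middle intestine. Its 8 stomach arrays of both sets spanned 0.18 to 0.27, below every intestine array. The difference was -0.32 (SE 0.08, adjusted p = 0.00585) in C and -0.31 (SE 0.08, adjusted p = 0.00858) in OH.

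Rpl36 differed by -0.35 (SE 0.13, adjusted p = 0.0361) in C and -0.36 (SE 0.13, adjusted p = 0.04) in OH, where 1 intestine array, at -0.32, lay among the stomach arrays. Rpl17, another tunnel protein, differed by -0.29 in each set (adjusted p = 0.0246 in C and 0.0276 in OH). Rps27l, a paralog of Rps27 known as a p53 target, passed in C (-0.37, adjusted p = 0.0171) and gave -0.12 (adjusted p = 0.441) in OH. The largest fall in C belonged to the dim Rpl17l1, at -0.76 (SE 0.27, adjusted p = 0.033), where C stomach replicate 3 was at -1.10 and the other C stomach arrays at -0.19 to 0.02. Without that array its difference was -0.51, after normexp correction it was -0.15, and it passed in neither. The other genes lower in C stomach were Rpl14 (-0.34, adjusted p = 0.0039 by limma), Rpl18, Rps21, Rps16, Rps12, Rpl8, Rps9 and Rps27a, at -0.28 to -0.21, and each had a negative difference in OH, from -0.25 to -0.02. Rpl8, close to the catalytic centre of the large subunit, was the tightest of them in stomach, at 0.15, 0.16, 0.17 and 0.16 against 0.47, 0.51, 0.34 and 0.31 in C middle intestine. In OH, Rpl13a passed at -0.27 (adjusted p = 0.044).

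**Figure D2:**
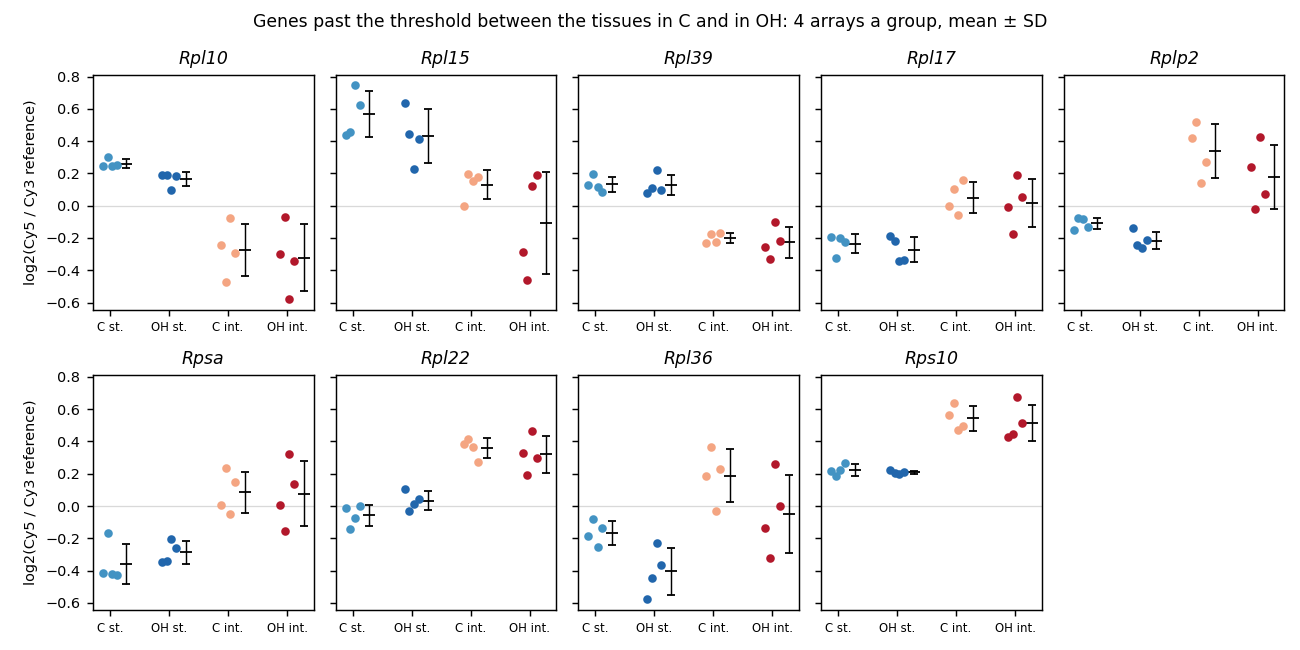
Log2 ratio of Cy5 to Cy3 on each array (points) with mean and SD of 4 arrays (black), for 9 genes past the threshold between stomach (st.) and middle intestine (int.) in C and in OH. Rpl10, Rpl15 and Rpl39, first in the upper row, were higher in stomach, and the other 6 genes were lower in stomach.

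The number of members found depended on single arrays. In C it was 22 with all arrays, 13 without C stomach replicate 3, 12 without C stomach replicate 4, 12 without C middle intestine replicate 1 and 11 without C middle intestine replicate 2. In OH it was 13 with all arrays, 8 without OH stomach replicate 2 and 8 without OH middle intestine replicate 3. With Cy5 alone the split was 3 higher and 5 lower in C and 5 higher and 2 lower in OH, and in OH it was 6 and 14 after normexp correction and 5 and 10 after centring. The counts over all probes in these fits are not set beside these. They thus do not show whether the members moved more than other probes. By the methods' test 10 members were higher and 30 lower in C, against 18.8% of all probes in each direction, and 13 were higher and 17 lower in OH, against 16.7% and 16.9%.

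Other cell markers moved with the tissue comparison. All 8 proliferation markers were lower in stomach in both sets, with list means of -0.81 to -0.61 on C stomach arrays, 0.11 to 0.23 on C intestine arrays, -0.98 to -0.57 on OH stomach arrays and -0.19 to 0.09 on OH intestine arrays. The mean of the 8 striated muscle genes measured was 3.05 to 3.81 on C stomach replicates 1, 3 and 4 and -0.997 on replicate 2, against -0.71 to -0.43 on the 8 intestine arrays. All 5 leukocyte genes were lower in stomach in both sets, and 4 of 5 passed in C and 5 of 5 in OH. All 6 smooth muscle genes were lower in C stomach, with a median difference of -1.27, and 2 of them passed. In OH 4 of the 6 were lower in stomach, with a median of -0.11, and 0 passed. With replicate 2 as the lone C stomach array, the tissue difference was -0.50 for Rpl22, 0.58 for Rpl10 and 0.40 for Rpl39. It was -0.42 for Rplp2 and -0.25 for Rpsa. A single array has no spread of its own, so only the size of these differences is given. The part of these cells in the differences was not tested.

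Of the members, 52 had more than 1 probe above the filter, and the probes of 39 had the same sign in C. The median range over the probes of a gene was 0.09. Of the 14 such genes that passed in C by the probe used, all had the same sign on every probe, and for 6 of them every probe passed. The probes of Rpsa (-0.44 and -0.08), Rpl14 (-0.34 and -0.04) and Rpl17 (-0.29 and -0.02) differed most among these. Rpl10l gave 0.27 and -0.73 and Rps4y2 0.08 and -0.57, with no probe of these genes past the threshold.

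**Figure D3:**
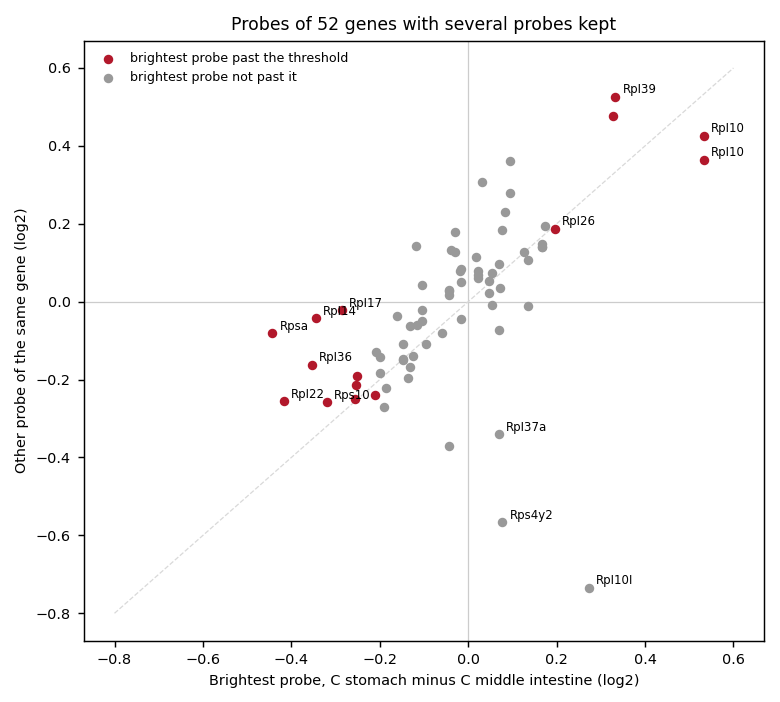
Difference between C stomach and C middle intestine (log2) by the brightest probe of a gene (x axis) and by each other probe of the same gene (y axis), for 52 genes, with genes past the threshold by the brightest probe in red; the dashed line marks equal values. The red points lie in the upper right and lower left, with Rpsa, Rpl14 and Rpl17 near 0 on the y axis and Rpl10l and Rps4y2 at the bottom.

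The paralog pairs ask whether a paralog and its parent gene change together between the tissues. Of 10 pairs listed, 8 were on the array and in 6 both genes passed the filter. For each array the ratio of the parent was subtracted from that of the paralog. In C, 1 of the 6 pairs had stomach and intestine arrays that did not overlap, Rpl22l1 and Rpl22: this difference was 0.31 ± 0.13 in the stomach of C pups and 0.01 ± 0.10 in their middle intestine (SD, n = 4 each). The shift of 0.30 had an exact two-sided permutation p of 0.0286, the smallest that 4 against 4 arrays allow, and 0.171 after Benjamini-Hochberg adjustment over the 6 pairs. Rpl22 passed between the C tissues while Rpl22l1 was 0.13, 0.18, 0.39 and 0.32 in stomach and 0.52, 0.34, 0.42 and 0.21 in intestine, with a difference of -0.12 (adjusted p = 0.626). In OH the shift of the pair was 0.29 with overlapping arrays (exact permutation p = 0.2).

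In OH the pair that did not overlap was Rpl7l1 and Rpl7, with a shift of -0.26 (exact permutation p = 0.0286, adjusted over the 6 pairs 0.171), against -0.09 in C (exact permutation p = 0.314). The other 4 pairs overlapped in both sets: the shift was -0.26 in C and -0.16 in OH for Rpl10l and Rpl10, -0.16 and 0.01 for Rpl36al and Rpl36a, -0.01 and -0.06 for Rps4y2 and Rps4x, and -0.18 and 0.03 for Rps27l and Rps27. For these 4 pairs no unequal change was found by the brightest probe of each gene at this number of arrays. The outcome may depend on the probe. In C the 2 probes of Rpl10l gave 0.27 and -0.73 and those of Rps4y2 0.08 and -0.57, and the shifts by the dimmer probes are not given.

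Rpl3l, the striated muscle paralog of Rpl3, ranged over 7.21 on the 16 arrays, next to 7.36 for Rpl39l and 3.43 or less for every other member. Its log2 ratios were 5.38, -0.74, 4.33 and 4.81 in C stomach and -0.54, -0.66, -0.05 and -0.08 in C middle intestine. In OH they were -0.65, -1.83, -0.09 and 0.66 in stomach and -0.90, -1.29, -1.35 and -1.25 in intestine. It was well above background on 3 C stomach arrays, on 1 OH stomach array and on no intestine array, so its other values are those of a spot near background. From the means of log2 Cy5 signal, the 4 C stomach arrays were 27.0-fold C middle intestine. On each intestine array the higher of the spot and the lowest signal well above background was taken. C stomach replicate 2, near background, kept its own value, so the fold is not a lower bound. Rpl3l did not pass the filter and was not tested, and C stomach replicate 2 lay below every other C array. Rpl3 itself stayed between -0.31 and 0.03 on all 16 arrays, with a tissue difference of 0.14 (adjusted p = 0.211) in C.

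The 3 arrays with high Rpl3l were the 3 with the highest striated muscle genes. The muscle list mean was 3.43, -0.997, 3.05 and 3.81 on C stomach replicates 1 to 4, and -0.45 to 1.31 on the OH stomach arrays. Over the 16 arrays Rpl3l and the list mean had a Pearson r of 0.93 and a Spearman rho of 0.41, given as a description because 3 arrays stand apart from the other 13.

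**Figure D4:**
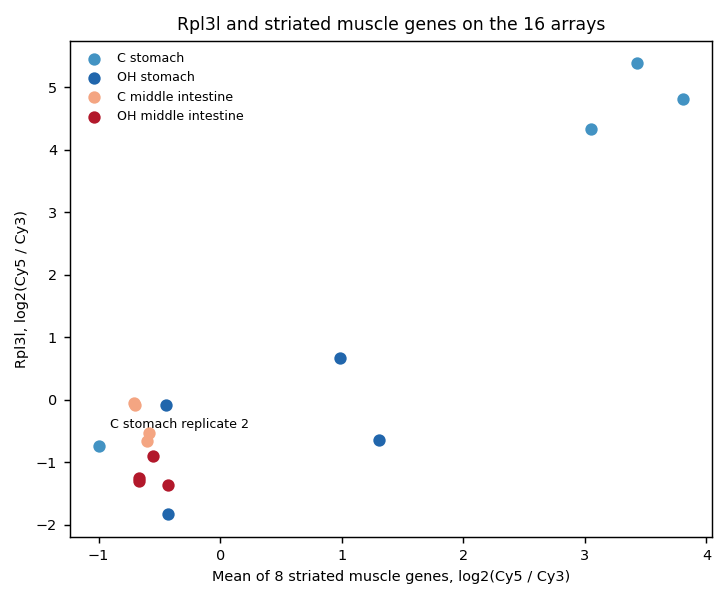
Log2 ratio of Rpl3l (y axis) against the mean log2 ratio of 8 striated muscle genes (x axis) on each of the 16 arrays, coloured by group. C stomach replicates 1, 3 and 4 lie at 4.33 to 5.38 for Rpl3l, and every other array, C stomach replicate 2 included, lies at 0.66 or below.

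Rpl39l, the testis paralog of Rpl39, was also dim. It was 3.32, 2.78, 2.12 and -1.56 in C stomach and -1.45, -1.43, -2.46 and -1.20 in C middle intestine, whereas the OH arrays gave -0.66, 4.90, 0.81 and 3.85 for stomach and 0.95, -1.003, -1.59 and -1.59 for middle intestine. It was well above background on 3 stomach arrays in each of C and OH, and in intestine on 0 arrays in C and 1 in OH. By the same reckoning C stomach was 7.26-fold C middle intestine, again not a lower bound, because C stomach replicate 4 was near background. The stomach arrays high in Rpl39l were in part those high in Rpl3l: C stomach replicates 1 and 3 were high in both genes. C stomach replicate 4 had 4.81 for Rpl3l and -1.56 for Rpl39l, and C stomach replicate 2 had -0.74 and 2.78. Rpl31l1 was well above background on 2 stomach and 3 intestine arrays in C and on 0 and 1 in OH.

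The comparison of OH with C asks whether obestatin changed the members within a tissue. In stomach, 0 members passed in either direction, as did 0% of all probes, and 10 members had an unadjusted p below 0.05, 6 higher and 4 lower, where 5.39% of all probes were higher and 5.22% lower by this measure. In middle intestine 0 members passed, against 0.335% of all probes that were higher and 0.0331% that were lower, and 9 members had an unadjusted p below 0.05, 2 higher and 7 lower, where 6.55% of all probes were higher and 3.9% lower. In neither tissue was the share of members in all far from that of the probes. The lowest adjusted p over the members was 0.295 in stomach and 0.0977 in middle intestine. The test of the methods, an analysis of variance followed by Tukey's comparison, does not moderate the spread across probes. As run here, only the p of the variance test over the 4 groups was adjusted over all probes. Tukey's p for the groups compared was not, so its threshold is not like that of limma. With this test 5 members were higher and 9 lower in stomach and 2 were higher and 10 lower in middle intestine. Of all probes, that test found 1.6% higher and 1.75% lower in stomach and 2.91% higher and 1.51% lower in middle intestine. The share of the 90 members that was lower exceeded that of all probes in both tissues. The share that was higher did so in stomach only.

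For some members the OH and C arrays did not overlap. In stomach these were 8 higher and 13 lower, or 8.89% and 14.4% of the members, against 4.09% and 3.51% of all probes. In middle intestine they were 2 higher and 12 lower, or 2.22% and 13.3%, against 3.72% and 2.13%. The median difference over the members was -0.02 in stomach and -0.06 in intestine (0.01 and 0.0011 over all probes). These comparisons carry the slide and the scan day with the treatment. Relative to the median of its array, the Cy5 signal of the members differed between OH and C by a median of -0.20 in stomach and -0.19 in intestine, while the Cy3 signal of the common pool did so by -0.17 and -0.11. The part of the labelling in the ratios was not tested. Muscle genes also differed between the stomach groups: the 8 striated muscle genes had a median difference between OH and C of -2.20, with list means of -0.997 to 3.81 in C and -0.45 to 1.31 in OH, and the 6 smooth muscle genes one of 1.48, with list means of -2.48 to -1.39 in C and -2.46 to 1.03 in OH. None of these muscle genes passed by limma, and 4 of 8 and 4 of 6 had an unadjusted p below 0.05. All 4 forestomach genes measured were lower in OH stomach, with a median difference of -0.98. Of these, 2 had an unadjusted p below 0.05 and 0 passed by limma. The part of muscle and forestomach genes in the stomach values of the members was not tested.

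Rpl29, a basic protein of the large subunit, had the lowest p over the members in stomach. It was 0.04, -0.0086, -0.0020 and -0.0040 in C stomach and -0.28, -0.27, -0.25 and -0.19 in OH stomach, with -0.02, -0.09, -0.01 and -0.05 in the intestine of C pups and -0.32, -0.27, -0.34 and -0.29 in that of OH pups. Every OH array lay below every C array of the same tissue. The difference was -0.25 (SE 0.07, adjusted p = 0.295) in stomach and -0.26 (SE 0.07, adjusted p = 0.149) in middle intestine. Its median-centred Cy5 differed by -0.34 and -0.44 in the respective tissues and its Cy3 by -0.08 and -0.15.

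Rpl14, also of the large subunit, had the lowest p in middle intestine, at 0.45, 0.36, 0.25 and 0.33 in C and 0.02, -0.12, 0.12 and -0.01 in OH. The difference was -0.35 (SE 0.08, adjusted p = 0.0977) there and -0.18 (SE 0.08, adjusted p = 0.467) in stomach.

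The members named for higher ratios in OH had lower median-centred signals in both channels. Rplp1 was 0.02, 0.20, -0.05 and -0.09 in C stomach and 0.24, 0.27, 0.24 and 0.35 in OH stomach, a difference of 0.26 (SE 0.10, adjusted p = 0.419) in which median-centred Cy5 moved by -0.13 and Cy3 by -0.39. Against C stomach replicate 2 alone, the C stomach array lowest in striated muscle and forestomach genes, its difference was 0.07. Those of Rps25, Rps27a and Rpl29 were 0.28, 0.25 and -0.24. Rps25 differed by 0.21 (adjusted p = 0.466) with -0.05 in Cy5 and -0.26 in Cy3. Rps27a, which is made as a fusion with ubiquitin, was 0.05, -0.03, -0.01 and 0.01 in C stomach and 0.27, 0.25, 0.21 and 0.16 in OH stomach, a difference of 0.21 (adjusted p = 0.375) with -0.16 in Cy5 and -0.37 in Cy3. In middle intestine Rpl7a was 0.25 higher (SE 0.07, adjusted p = 0.189) with -0.07 in Cy5 and -0.29 in Cy3. For each of these genes the difference in the common pool was larger than that in the tissue RNA.

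The OH and C differences of the members were set side by side in the tissues, which share no array. Of 90 members, 51 were lower and 19 higher in OH in both tissues and 20 had opposite signs, that is 77.8% with the same sign against 58.5% of all probes. Over the members the Pearson r between the tissues was 0.66 and over all probes 0.21, as a description across genes, which are not independent replicates. The 7 members whose arrays did not overlap in either tissue all kept their sign: Rpl14, Rpl24, Rpl29, Rps3 and Rps15 were lower and Rpl41 and Rpl7a higher. Both tissues share the scan day of their treatment, so treatment and scan day cannot be told apart here either.

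**Figure D5:**
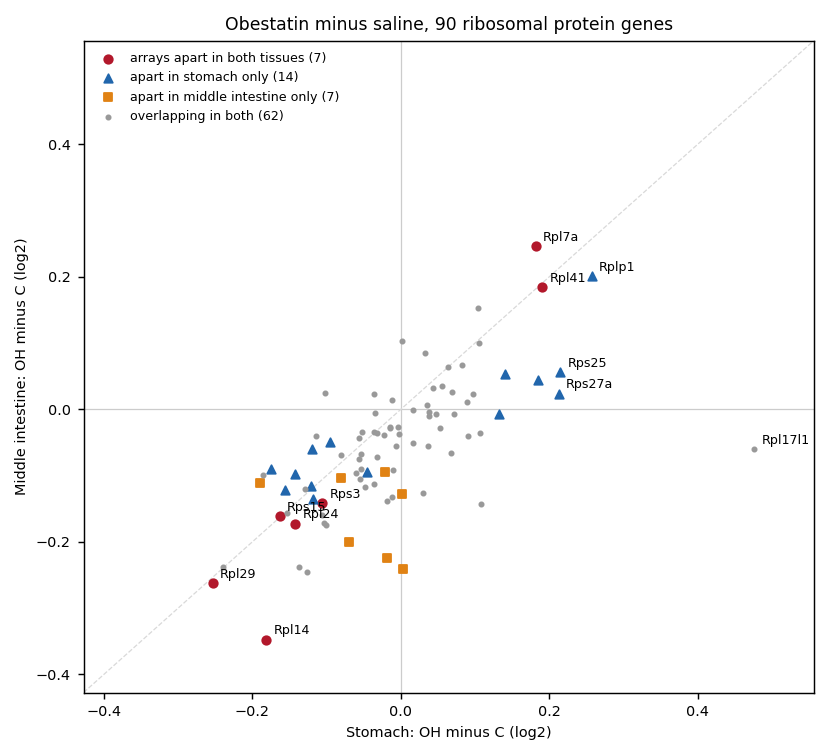
Difference between OH and C (log2) in stomach (x axis) and in middle intestine (y axis) for each of the 90 members, with colours and shapes for members whose OH and C arrays did not overlap; the dashed line marks equal differences. Most points lie along the line between -0.35 and 0.26, with Rpl29 and Rpl14 at the lower left, Rpl7a and Rplp1 at the upper right and Rpl17l1 alone at 0.48 in stomach.

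The tissue difference in OH was also compared with that in C. In this contrast 0 members passed, 0% of all probes passed, as higher or as lower, and 0 members had an unadjusted p below 0.05, where 1.98% of all probes were higher and 3.87% lower by this measure. The lowest p was that of Rpl7, at 0.21 (SE 0.11, adjusted p = 0.838): stomach held 0.35, 0.36, 0.33 and 0.39 in C and 0.41, 0.33, 0.26 and 0.35 in OH, and intestine 0.22, 0.42, 0.34 and 0.31 in C and 0.10, 0.11, 0.04 and 0.15 in OH, the lowest group. Rps27a was at 0.19 (adjusted p = 0.846). So the genes that passed between the tissues in C or in OH alone were not shown to differ between the treatments.

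Some of the members' genes share a sequence feature at their starts that the name rule did not use. A terminal oligopyrimidine tract, a C at the start of the mRNA followed by bases that are all C or T, is the known growth control element of ribosomal protein mRNAs. RefSeq start sites of the GRCr8 build were found for 73 of the 93 symbols, with 74 start sites. Of these, 24 (32.4%) had a C at the start with 4 pyrimidines after it, against 2.63% of all 33469 start sites. The letters CTTTC lay within 15 bases on either side of the start on the gene strand in 36.5% of the members and in 3.59% of all start sites, and on the other strand in 1.35% and 3.82%. The letters CTTCC gave 27.0% and 6.05% on the gene strand and 4.05% and 6.73% on the other, and the motifs can overlap. The start sites of 7 of the genes that passed in both sets are shown, as examples with long and short runs, 15 bases before and 15 bases from the start, with capitals for the pyrimidine run that holds the start.
Rpl10, chrX:157205835-157205864, plus strand: caggcgtgggagcgTCTCTTTTCCTCTggc
Rpl39, chrX:121195882-121195911, minus strand: tcttctaatcgcgTTCTTCCggcctgtcct
Rpl22, chr5:168117946-168117975, plus strand: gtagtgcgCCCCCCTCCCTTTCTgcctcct
Rps10, chr20:5700730-5700759, minus strand: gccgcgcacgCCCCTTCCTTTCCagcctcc
Rpsa, chr8:128728864-128728893, plus strand: cctttccgcgctaCCCTggaacgggtccgt
Rplp2, chr1:205975906-205975935, plus strand: cctttcgccgccggaCgccgccgaggtcgc
Rpl36, chr9:1533765-1533794, plus strand: ctgtccggccgccaTCggaaagctgcaggt
Rpl10 and Rpl39, which were higher in stomach, and Rpl22 and Rpl17 (not printed), which were lower, all have a C at the start with 4 pyrimidines after it, so genes of both directions carry it, while Rps10, Rpsa, Rplp2 and Rpl36 do not by these letters. Of the start sites of genes past the threshold in C, 2 of 4 higher in stomach and 3 of 15 lower had it. Of those of the other members tested, 19 of 53 had it. A match is a description of the letters at an annotated start.

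Genes around the ribosomal proteins gave other values. Of the ribosomal proteins that the name rule misses, Fau, made as a fusion with a small subunit protein, differed by -0.30 (adjusted p = 0.0102) in C and -0.33 (adjusted p = 0.00654) in OH between stomach and intestine, while Gnb2l1 and Rpl36al did not pass. Of 56 genes of ribosome biogenesis measured, 14 were higher and 42 lower in C stomach, and 17 were higher and 39 lower in OH stomach. Past the threshold were 2 higher and 26 lower in C, against 22.7% and 22.3% of all probes. In OH 2 higher and 19 lower passed, against 19.2% and 19.1% of all probes. The medians were -0.39 in C and -0.22 in OH, beside -0.05 and -0.02 for the ribosomal proteins themselves. Emg1, a methyltransferase of the small subunit RNA, fell by 1.44 in C and by 1.08 in OH, and Nop56, a core protein of the box C/D particles, by 1.01 and 0.70. Of 17 genes of growth control, 6 were higher and 11 lower in C stomach, and 11 were higher and 6 lower in OH stomach. Past the threshold were 3 higher and 1 lower in C, and 2 higher and 1 lower in OH. Mycn, a Myc family factor, was higher by 1.80 in C and 1.98 in OH and passed in both. Between OH and C, 0 genes of these lists passed in either tissue.

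The members varied little together from array to array. The median Pearson r over 16 arrays between any 2 members was 0.08, with 55.4% of the pairs above 0. The mean over the 90 members lay between -0.02 and 0.10 on every array, at 0.03 ± 0.02 (SD, n = 4) for the stomach of C and 0.02 ± 0.01 for that of OH, and at 0.09 ± 0.02 and 0.03 ± 0.04 for middle intestine. Of 15794 other genes, the 5 most like this mean over the 16 arrays had a Pearson r of 0.85 to 0.94, and 3 of these carry a name on the array other than a transcript number: RGD1560997 (r = 0.94), RGD1559743 (r = 0.88) and LOC366502 (r = 0.86).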

How the data were processed

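Total RNA of stomach and middle intestine was measured on 16 arrays. For each the authors deposited two-colour Agilent scanner output in which the intensity of every spot had been background-subtracted, detrended and Lowess-normalized (Feature Extraction 10.10.1.1 per the file headers, 10.7.3.1 per the submitters' processing notes), and a table of log10 ratios that the authors made from the same scans. None was scaled between arrays. No spot was saturated.

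Here the log2 ratio of processed Cy5 to Cy3 intensity was averaged over the spots of a probe, without outlier spots. A probe was kept when some group had it well above background on each of its 4 arrays (Cy5) and every group held 3 or more values (21174 of 30367). One mean per group was fitted over 16 arrays with limma 3.58.1 in R 4.3.3, with Benjamini-Hochberg adjustment over all kept probes and a threshold of 0.05. The code was tested on simulated data. Paralog pairs were tested by exact permutation over arrays. The text names both genes of each paralog pair, the stalk genes and Rpsa, the 5 members with the largest differences in each direction of a tissue contrast, the 4 largest differences between OH and C among members whose arrays do not overlap, the 3 lowest p of the contrast between tissue differences, and likewise 5 genes most like the members' mean. Members just outside these, such as Rpl26, Rpl41, Rpl24, Rps3, Rps15, Rpl13a, Rpl8 and the biogenesis genes, were chosen after their values were seen. A few genes that this rule or a list holds are not reported here. Members and lists were chosen with earlier results of these data known. Of the probes used, 80 of 93 matched a RefSeq accession, 78 with the same symbol; Rpl37 and Rpl39l are now Rpl37l1 and Rpl39l1. Replicate numbers name rats and were not taken as pairs. Alternatives were another background correction, Aquantile, Cy5 alone, centring, the deposited log10 table, no filter, all probes of a gene, the arrays of a contrast alone, blocks, trend and robust moderation, the methods' test, and each array left out. The number of arrays limits the precision; p-values measure the spread between rats on 1 slide a group.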

Additional observations from a re-analysis of the deposited data

Results flagged for a closer look

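In 8 of 120 group values of the named members, 1 array lay apart from the other 3 by more than Dixon's critical ratio, where chance gives about 1 in 20. The ratio of gap to range was 0.884 for Rpl10 and 0.883 for Rps4x, both by C stomach replicate 2, and 0.956 for Rpsa by the same array. It was 0.905 for Rpl10 by OH stomach replicate 3, 0.859 for Rpl29 by C stomach replicate 1 and 0.975 for Rps27a by C middle intestine replicate 4. It was 0.852 for Rps27l by OH middle intestine replicate 2 and 0.85 for Rps4y2 by OH middle intestine replicate 4. Over all 93 members, 23 of 372 group values were apart in this way, 8 of them by C stomach replicate 2. That was the C stomach array lowest in striated muscle and forestomach genes. For Rpl10, Rpl29 and Rps27a the gap was between arrays that differ little in all.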

How the results depend on the processing

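In C the count of 22 members between the tissues was 8 with Cy5 alone and 13 with the arrays of the contrast alone. It was 12 with a replicate block by treatment and 40 by the methods' test. Leaving out each array gave 11 to 23. No count is given for C stomach replicate 2 as the lone C stomach array, an alternative chosen after seeing the data. In OH the count of 13 was 20 after normexp and loess, 7 with Cy5 alone, 5 with the arrays of the contrast alone and 30 by the methods' test, and 8 to 15 with each array left out. Between OH and C the count of 0 became 14 in stomach and 12 in middle intestine by the methods' test, and 1 in middle intestine without the filter on dim probes. The paralog pairs apart in C were 1 to 2 with an array left out. The cause was not tested. A replicate block gave 16 members in C, 11 in OH and 0 in the other contrasts; same-numbered rats correlated from -0.40 to 0.51 in their deviations, and an array correlated best with its own number in 11 of 24 pairings with another group, so the numbers were not taken to pair the rats. Of the values of the named genes under these alternatives, 745 kept their side of the threshold, 62 no longer passed, 7 newly passed and 0 changed direction. Aquantile leaves ratios as they are and no spot was saturated, so those alternatives changed nothing. Scaling between arrays, also chosen later, gave 29 in C and 10 in OH. Apart from the methods' test, the counts over all probes under these alternatives are not set beside the counts of members. The counts thus do not show whether the members changed more than other probes did.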
